A study of Homo sapiens with 9 samples.

Results

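A microarray measures RNA through probe sets, groups of short DNA probes designed against the same transcript sequence. The members described here are the 11721 probe sets of the array that are not controls and have no gene in the platform's annotation table, out of 54613 probe sets that are not controls (21.5%). Another 41091 probe sets (75.2%) carry a single gene and 1801 carry several. The table lists only probe sets that have a gene, so a member is unnamed here and is not shown to lack a gene. No gene is given for any member, and members are called by their probe set numbers.

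The RNA came from HSF-6, a human embryonic stem cell line, on 9 Affymetrix arrays, 3 to a group. The untreated group was HSF-6(8) without an added agent. The other groups were HSF-6(8) and HSF-6(S9), each exposed to butyrate together with DZNep. Per the labels, cells were grown for 6 days, and the agents were absent or present during 11 passages. The labels give no dose, do not explain the marks (8) and (S9), hold no untreated HSF-6(S9) group and hold no group with a single agent. They also leave unsaid whether arrays within a group came from separate cultures, so p-values measure only the spread between these arrays, which may be technical.

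Unnamed probe sets of this kind of array were mostly designed against expressed sequence tags, which are partial reads of cloned transcripts. Such tags can stem from long non-coding RNAs, from introns or extended 3' ends of known genes, from repeats, or from RNA found in few tissues. Butyrate inhibits histone deacetylases, which remove acetyl groups from histones. DZNep, 3-deazaneplanocin A, inhibits S-adenosylhomocysteine hydrolase and lowers histone methylation by Polycomb proteins. Both agents act on chromatin and can change transcription inside and outside annotated genes.

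The members were concentrated among higher probe set numbers. The array family was built in stages, and higher numbers broadly belong to later designs. Of the members, 1839 (15.7%) had a number under 220000, 6862 (58.5%) a 6-digit number of 220000 or more, and 3020 (25.8%) a 7-digit number. The corresponding counts for single-gene probe sets were 17068 (41.5%), 17340 (42.2%) and 6683 (16.3%). Read the other way, 9.27% of all probe sets numbered under 220000 had no gene in the table, against 27.6% and 30.4% in the later ranges. Of the probe sets numbered under 220000, 90.7% have a gene in the table. Members of that range are described by counts only, which was a choice, and what a missing entry means there was not tested.

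The ending of a probe set name tells how specific its probes were meant to be. Plain _at sets were designed to be unique, _s_at sets match several transcripts, and _x_at sets hold probes that can also bind unrelated sequences. The plain ending made up 9788 (83.5%) of the members and 65.1% of the single-gene probe sets. The _s_at ending made up 796 (6.79%) of the members and 24.2% of the single-gene sets, and the _x_at ending was about as common in both, with 833 (7.11%) and 7.30%.

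The labelled cell type was checked against marker genes. Of 11 pluripotency genes listed, 10 were matched, such as SOX2 and LIN28A, and all 10 had a signal of 100 or more on every array, and their summed signal ranged from 126889 to 213671. The summed signal of 9 endoderm markers lay between 743 and 1059 in untreated HSF-6(8) and between 2001 and 2440 in treated HSF-6(S9). In treated HSF-6(8) it was 1890, 2497 and, on the third array, 11228. The summed signal of 12 fibroblast and stromal markers was likewise highest on that array, at 47389 against 19786 to 28499 on the other 8. A control probe set at the 5' end of 18S ribosomal RNA read 1589, 805 and 3531 on the third arrays of the groups, and 279 to 547 on the remaining 6. The part of these differences in the results below was not tested, and counts of calls and values of the named members are also given with only the first and second arrays.

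Members were much dimmer than single-gene probe sets. The median signal of the members was 30.8, 24.7 and 29.2 on the untreated HSF-6(8) arrays, 26.0, 29.4 and 31.0 on the treated HSF-6(8) arrays, and 24.8, 29.9 and 27.1 on the treated HSF-6(S9) arrays. The 3 groups overlapped. The median of single-gene probe sets lay between 96.5 and 123 on the same arrays. The deposited table has no detection calls, so a signal of 100 or more stands here for detection, on a scale where the trimmed mean of every array is close to 500.

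**Figure D1:**
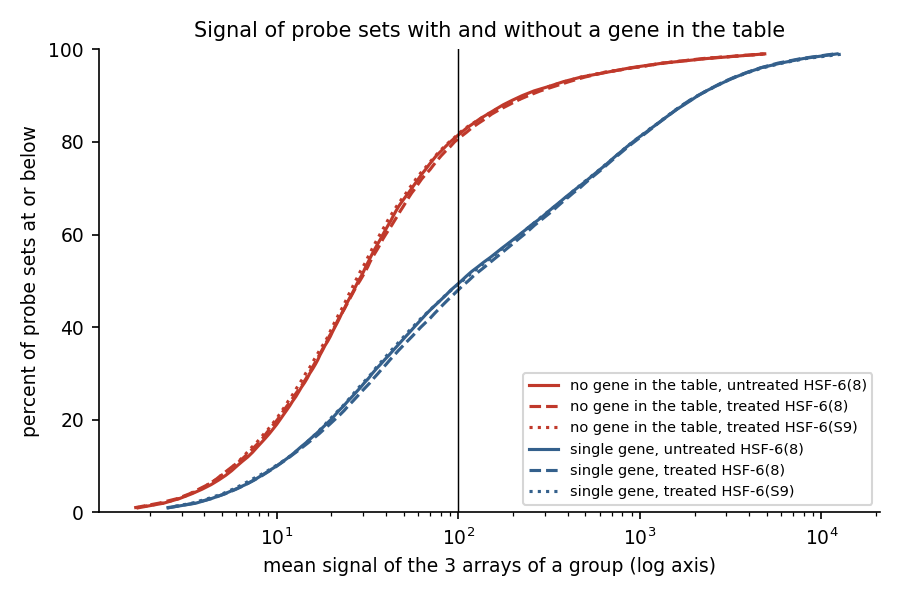
Percent of probe sets (y axis) whose mean signal over the 3 arrays of a group was at or below the value on the x axis (signal, log axis), for members and for single-gene probe sets in each group; the vertical line marks a signal of 100. The member curves of the 3 groups lie on each other and far to the left of the single-gene curves.

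The share of members at 100 or more was 18.6%, 17.9% and 20.3% on the untreated HSF-6(8) arrays, 18.9%, 19.0% and 21.0% on the treated HSF-6(8) arrays, and 18.4%, 16.7% and 20.5% on the treated HSF-6(S9) arrays. The groups overlapped, and the third array was the highest of its group each time. The mean share was 19.6% ± 1.20 (SD, n = 3) in treated and 18.9% ± 1.22 (SD, n = 3) in untreated HSF-6(8), a difference of 0.720 percentage points (two-sided exact permutation test, p = 0.5, where 3 arrays against 3 cannot go below 0.1). Single-gene probe sets had shares of 49.5% to 53.5%.

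Counted on all 3 arrays of a group, 1719 members (14.7%) were detected in untreated HSF-6(8), 1807 (15.4%) in treated HSF-6(8) and 1658 (14.1%) in treated HSF-6(S9). The shares of single-gene probe sets were 45.8%, 47.0% and 45.8%. Detected in all 3 groups were 1454 members (12.4%), against 42.8% of single-gene probe sets. At the other end, 8334 members (71.1%) were under 100 on all 9 arrays, against 39.2% of single-gene sets, and the remaining 1933 (16.5%) were at 100 or more on some arrays. A bright minority existed, with 332 members (2.83%) at 1000 or more on all 9 arrays.

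Detection fell along the number ranges. In untreated HSF-6(8), 652 of the 1839 members numbered under 220000 were detected (35.5%), 900 of the 6862 with later 6-digit numbers (13.1%) and 167 of the 3020 with 7-digit numbers (5.53%). Single-gene probe sets followed the same order at a higher level, with 60.5%, 43.4% and 14.5%. The shares for treated HSF-6(8) were 36.3%, 13.9% and 6.23%, and those for treated HSF-6(S9) were 34.8%, 12.6% and 4.97%. Of the 332 members at 1000 or more everywhere, 251 were numbered under 220000. By ending, 45.4% of the _s_at members and 26.5% of the _x_at members were detected in untreated HSF-6(8), against 11.4% of the plain _at members.

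**Figure D2:**
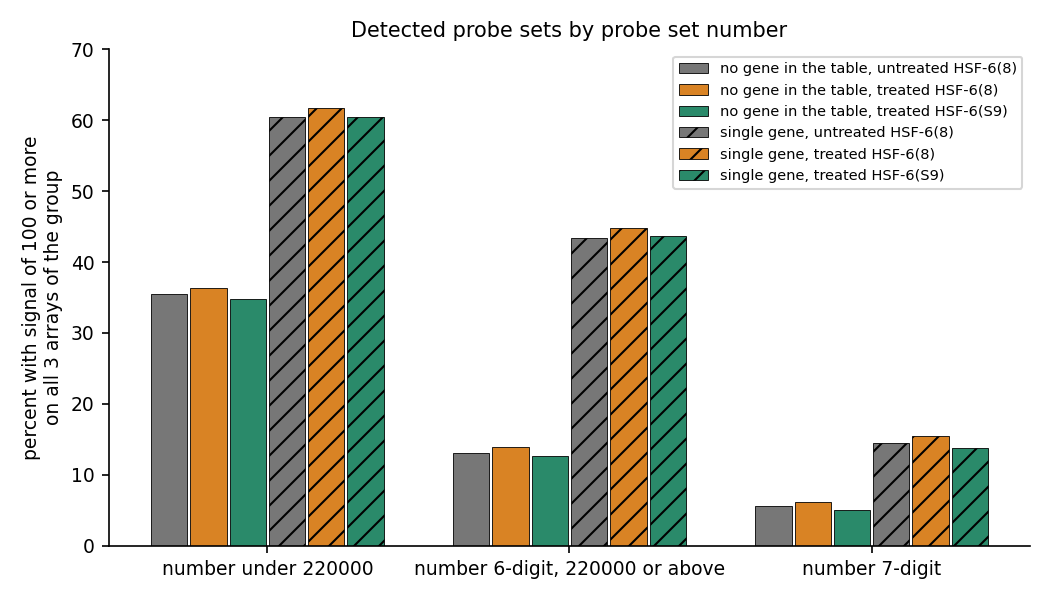
Percent of probe sets with a signal of 100 or more on all 3 arrays of a group (y axis), by range of probe set number (x axis), with bars for the 3 groups of members and of single-gene probe sets. Among members in untreated HSF-6(8) the bars fall from 35.5% to 5.53%, and within a range the groups have like heights.

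Few members crossed the detection level as a group. In all, 25 members (0.213%) were at 100 or more on all treated HSF-6(8) arrays and under 100 on every untreated array. Another 11 (0.0938%) showed the reverse. Of single-gene probe sets, 187 (0.455%) did the first and 44 (0.107%) the reverse. These are shares of all sets, and 71.1% of members were under 100 on all 9 arrays, against 39.2% of single-gene sets. Detected in treated HSF-6(8) were 1807 members and 19333 single-gene sets, and in untreated HSF-6(8) 1719 and 18817. Set against those counts, the share of members was the higher in both directions in this comparison, which was not tested. The 11 had no signal above 187, and 0 of them passed the test described next. The log2 fold changes of the 25 ran from 0.37 to 2.60 with a median of 1.03, and 2 of them passed the test described next. In both treated groups 9 members (0.0768%) were detected that were under 100 on every untreated array, against 111 single-gene sets (0.270%). Set against the counts detected in treated HSF-6(8), this share of members was the lower. The reverse held for 7 members (0.0597%) and 21 single-gene sets (0.0511%), and against the counts detected in untreated HSF-6(8) the share of members was the higher.

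To test for a response, log2 of the signal plus 16 was fitted with limma over every probe set that lay above the array median on at least 3 of the 9 arrays. This kept 3369 members (28.7%) and 60.3% of the single-gene probe sets, while 8352 members were too dim to be tested. Of the 3369, 1788 (53.1%) were above the median on all 9 arrays, and 7 on all 6 treated arrays and no untreated one. A probe set was called at a change of 2-fold or more with an adjusted p (Benjamini-Hochberg over all 29328 tested) under 0.05. Adding 16 understates the fold change of dim probe sets.

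In HSF-6(8), 6 members rose with butyrate and DZNep and none fell. The 6 are 0.178% of the 3369 tested members, and the background over all tested probe sets was 0.300% (88 called), with 0.273% called higher and 0.0273% lower. By number range, 2 of 873 tested members under 220000 were called (0.229%), 2 of 1994 with later 6-digit numbers (0.1003%) and 2 of 502 with 7-digit numbers (0.398%). The shares over all probe sets of each range were not computed, so the ranges are not compared. Of the 6, 4 were above the array median on no untreated array and were tested only because of the treated arrays. Both members with 7-digit numbers were among these 4. In such bulk RNA, more cells that hold a transcript and more of it per cell cannot be told apart. Without adjustment for multiple testing, 227 members had a p under 0.05 (6.74%, background 7.52%). A mean change of 2-fold or more was seen for 70 members that were higher (2.08%, background 2.47%) and 29 that were lower (0.861%, background 0.631%). The groups did not overlap for 248 members that were higher (7.36%, background 8.82%) and 157 that were lower (4.66%, background 6.04%). The median log2 fold change was 0.05 for the members and 0.02 over all probe sets, and 57.2% and 52.5% were above 0. The members' median depended on the filter and on the normalization. It was -0.02 with the filter at the 75th percentile of each array and 0.00076 with quantile normalization.

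The third arrays of different groups deviated together (correlations after removal of group means of 0.41 to 0.59), so the replicate mark was also fitted as a block. Among first and second arrays, the correlations were 0.12 to 0.32 for the same mark and 0.06 to 0.38 for unlike marks. They showed no clear pairing by mark. With the replicate block, 10 members were called in this comparison (0.297%), against 148 of all tested probe sets (0.505%). The 6 were among the 10. Of the 10, 7 were above the array median on no untreated array and were tested only because of the treated arrays. With only the first and second arrays 3 were called (0.0890%, against 0.157% of all), 2 higher and 1 lower, and 1 of the 6 was among them. Leaving out untreated array 1 or 2 left 2 calls, and leaving out array 1 or 2 of treated HSF-6(8) or array 1 of treated HSF-6(S9) left 3, where 0.143% to 0.222% of all tested probe sets were called.

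**Figure D3:**
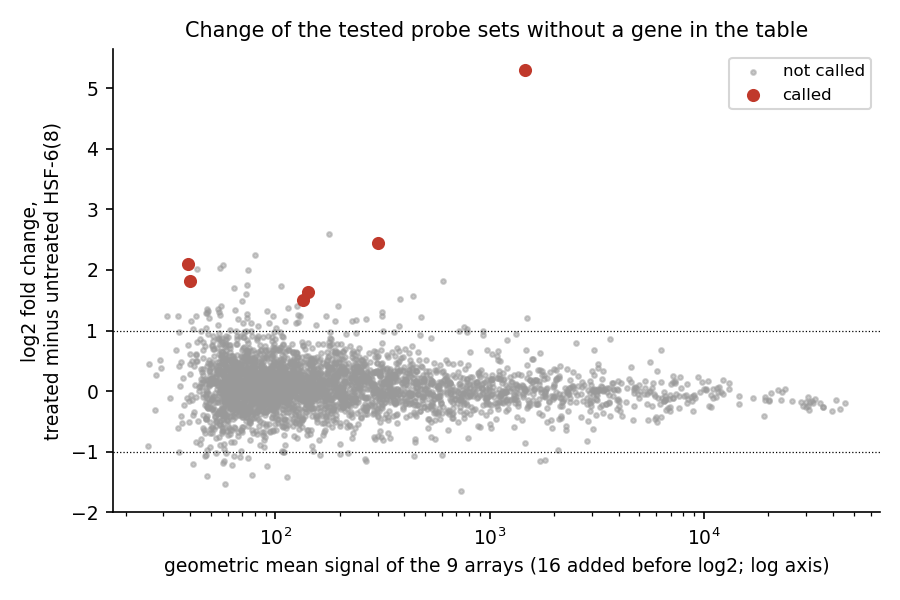
Log2 fold change of treated minus untreated HSF-6(8) (y axis) against the geometric mean signal of the 9 arrays (x axis, 16 added, log axis) for the 3369 tested members, with the 6 called in red; dotted lines mark a 2-fold change. The called member at 5.30 lies far above the rest, and most members stay between the dotted lines.

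Probe set 237911_at had the largest rise. Its signal was 81.9, 87.0 and 230 on the untreated HSF-6(8) arrays, 5123, 6312 and 4627 on the treated HSF-6(8) arrays, and 5320, 5528 and 3091 on the treated HSF-6(S9) arrays. Every treated array was far above every untreated one, and the third array of the untreated group was the highest of that group. The means were 133 ± 84.3, 5354 ± 866 and 4646 ± 1351 (SD, n = 3 each). In HSF-6(8) the log2 fold change was 5.30 ± 0.38 (SE; limma adjusted p = 0.000518), 39.3-fold on the scale with 16 added. It ranked first of the 29328 probe sets tested, with or without a gene, and number 4 when 1 was added in place of 16. Probe sets of ZNF253 (5.13) and ZNF682 (5.08) followed by less than its SE, so first place is not set apart from them. In treated HSF-6(S9) against untreated HSF-6(8), 237911_at ranked number 2, and number 5 with 1 added. It stayed called when each array was left out in turn, with log2 fold changes of 5.06 to 5.73, and with only the first and second arrays (adjusted p = 0.00190).

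Probe set 231460_at showed the same pattern at a lower level. Its signal was 133, 81.3 and 71.7 without the agents, 525, 608 and 603 in treated HSF-6(8), and 524, 427 and 486 in treated HSF-6(S9). The treated and untreated arrays did not overlap, and the arrays within each treated group were close together. The log2 fold change in HSF-6(8) was 2.45 ± 0.22 (SE; limma adjusted p = 0.00201). It was called without each array in turn, and missed the threshold with only the first and second arrays (adjusted p = 0.0599).

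The neighbouring numbers 1556110_at and 1556111_s_at were both called. The signal of 1556110_at was 56.9, 50.6 and 64.3 in untreated HSF-6(8), 257, 227 and 158 in treated HSF-6(8), and 216, 304 and 161 in treated HSF-6(S9). The signal of 1556111_s_at was 69.4, 64.3 and 57.7, then 174, 219 and 246, then 193, 187 and 149. For both, all 6 treated arrays were above all untreated ones. The log2 fold changes in HSF-6(8) were 1.63 ± 0.26 (SE; limma adjusted p = 0.0459) for 1556110_at and 1.51 ± 0.19 (SE; limma adjusted p = 0.0156) for 1556111_s_at.

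Neither was above the array median on any untreated array, so both were tested only because of their signal in the treated groups, and their calls rest on that filter. When every probe set was tested the adjusted p was 0.0986 for 1556110_at and 0.0467 for 1556111_s_at. With only the first and second arrays it was 0.0603 and 0.0856. Single arrays also decided these calls. Leaving out any HSF-6(8) array or the first treated HSF-6(S9) array ended the call of 1556110_at, with adjusted p up to 0.214. Leaving out any untreated array or array 2 or 3 of treated HSF-6(8) ended that of 1556111_s_at, with adjusted p up to 0.0890. Whether both detect the same transcript cannot be read from the files used here. Among neighbouring 7-digit numbers that both have a single gene, 23.8% of 3209 pairs share it. Across all 414 neighbouring member pairs that were tested, the log2 fold changes of the pair partners correlated with r = 0.21, given as a description over probe sets of the same arrays. The correlation was 0.43 over 143 pairs numbered under 220000, -0.05 over 229 pairs with later 6-digit numbers and 0.43 over 42 pairs with 7-digit numbers, which include the called pair.

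**Figure D4:**
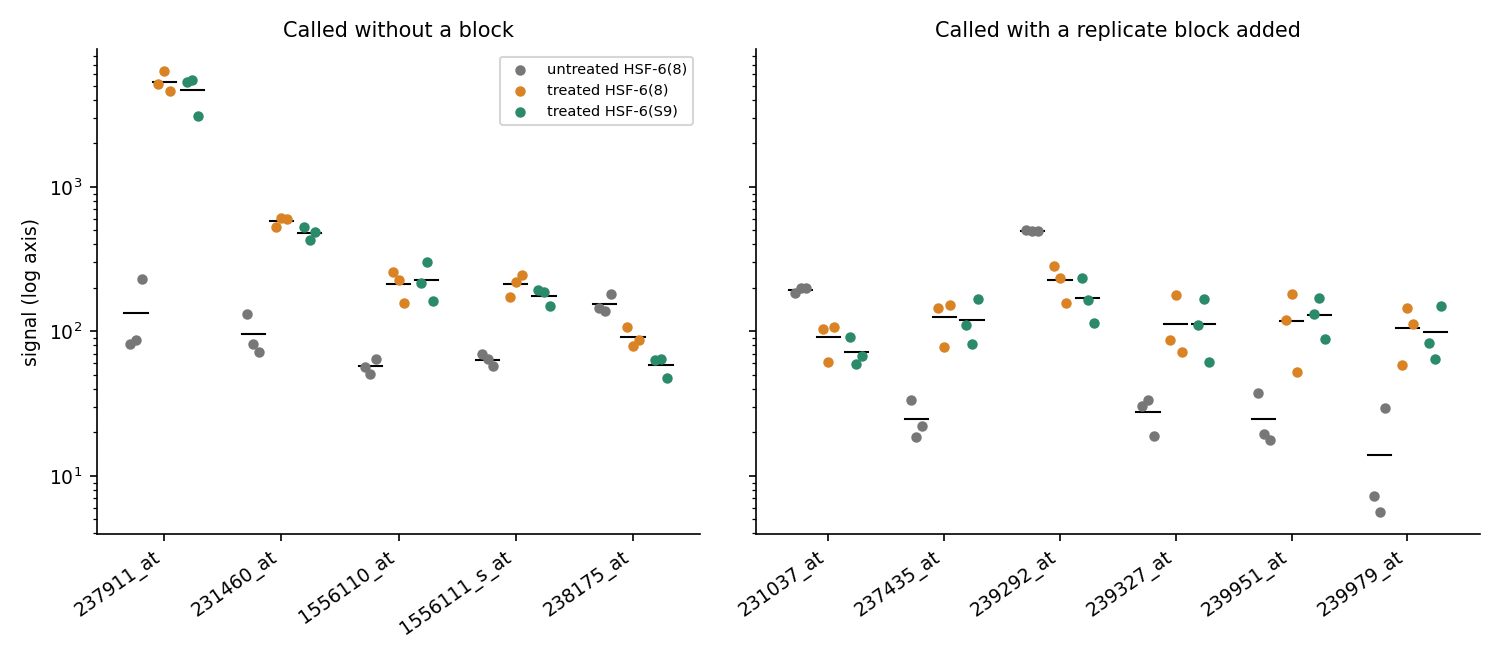
Signal on each array (points, log axis) and group mean (line) in the untreated and both treated groups for the 5 called members numbered 220000 or more (left) and 6 members called with the replicate block added (right). For 237911_at the treated arrays sit between 3091 and 6312 and the untreated ones between 81.9 and 230.

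The comparison of treated HSF-6(S9) with untreated HSF-6(8) differs in both the agents and the cells, which cannot be told apart here, and it shares the untreated arrays with the first comparison. It called 8 members, 6 higher and 2 lower (0.237%, background 0.389%, with 0.314% higher and 0.0750% lower). Of the 8, 4 were higher and above the array median on no untreated array, so they were tested only because of the treated arrays. The 6 that rose in HSF-6(8) were all among the 8, which is no independent support because the untreated arrays are shared. At an unadjusted p under 0.05 there were 346 members (10.3%, background 11.3%). A mean change of 2-fold or more was seen for 64 that were higher (1.90%, background 2.61%) and 63 that were lower (1.87%, background 1.51%). The groups did not overlap for 237 that were higher (7.03%, background 9.07%) and 243 that were lower (7.21%, background 8.35%). The median log2 fold change was -0.01 for the members and -0.01 for all probe sets, and that of the members was 0.02 without the third untreated array and 0.06 without the second treated HSF-6(S9) array.

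The members named above had log2 fold changes of 5.06 for 237911_at (limma adjusted p = 0.000700), 2.19 for 231460_at (0.00488), 1.69 for 1556110_at (0.0367) and 1.26 for 1556111_s_at (0.0346). Leaving out any array other than the third of treated HSF-6(8) ended the calls of 1556110_at and 1556111_s_at, with adjusted p up to 0.146 and 0.136. With only the first and second arrays the calls of 231460_at (adjusted p = 0.0785), 1556110_at (0.0556) and 1556111_s_at (0.0968) were lost, and that of 237911_at was not (0.00204). With no filter those of 1556110_at (0.0871) and 1556111_s_at (0.0926) were lost.

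Probe set 238175_at fell. Its signal was 146, 138 and 182 in untreated HSF-6(8), 107, 79.8 and 87.4 in treated HSF-6(8), and 63.1, 64.6 and 47.6 in treated HSF-6(S9). The 3 groups did not overlap. The log2 fold change was -1.20 ± 0.19 (SE; limma adjusted p = 0.0422) against untreated HSF-6(8), and within HSF-6(8) it was -0.67 ± 0.19 (SE; adjusted p = 0.306). Leaving out any of the 9 arrays raised the adjusted p of its fall above the threshold, to between 0.0502 and 0.143. It was 0.164 with only the first and second arrays and 0.107 when every probe set was tested. The probe set was above the array median on every HSF-6(8) array and on no treated HSF-6(S9) array. It was thus tested only because of its signal in HSF-6(8), where it was higher, and its call rests on that filter.

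With the replicate block, 19 members were called in this comparison (0.564%), 15 higher and 4 lower, against 233 of all tested probe sets (0.794%). The 8 were among the 19. Of the 19, 11 were higher and above the array median on no untreated array, so they were tested only because of the treated arrays. With only the first and second arrays 2 were called (0.0594%, against 0.160% of all), both among the 8. Leaving out any untreated array or the third treated HSF-6(S9) array left 2 calls, leaving out the first treated HSF-6(8) array left 3, and leaving out array 2 of treated HSF-6(8) or array 1 or 2 of treated HSF-6(S9) left 5. In these fits 0.123% to 0.269% of all tested probe sets were called.

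Members that were called only once the replicate block was added were chosen after their values were seen. Of the 6 given here, 237435_at, 239979_at, 239327_at and 239951_at were above the array median on no untreated array. They were tested only because of their signal in the treated groups, so their p-values, with or without the block, rest on that filter and are given as descriptions. With only the first and second arrays none of the 6 passed, with limma adjusted p of 0.104 to 0.219 in the comparisons where the block called them.

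Probe set 237435_at had signals of 33.8, 18.7 and 22.2 in untreated HSF-6(8), 146, 77.5 and 152 in treated HSF-6(8), and 110, 81.7 and 167 in treated HSF-6(S9). All treated arrays were above the untreated ones, and the second array was the lowest in every group. Its log2 fold change in HSF-6(8) was 1.76 ± 0.31 (SE), with a limma adjusted p of 0.0746 without and 0.0214 with the block.

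Probe set 239979_at had signals of 7.23, 5.65 and 29.3, then 58.1, 146 and 113, then 83.1, 64.4 and 149. The untreated values were far under 100 and the log2 fold change of 2.03 depended on the added constant, at 3.07 with 1 and 1.10 with 64 added (limma adjusted p = 0.117 without and 0.0417 with the block). Probe set 239327_at had signals of 30.4, 33.7 and 18.9, then 87.6, 178 and 71.6, then 110, 167 and 61.7. The second array was the highest in every group and the third the lowest, and its log2 fold change in HSF-6(8) was 1.48 (limma adjusted p = 0.231 without and 0.0338 with the block).

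The other 3 were called with the block against untreated HSF-6(8) in treated HSF-6(S9). Probe set 239951_at had signals of 37.8, 19.3 and 17.7, then 119, 181 and 52.1, then 133, 170 and 89.0, which is a change of 1.83 on the log2 scale (limma adjusted p = 0.112 without and 0.0381 with the block). Probe set 239292_at had 500, 499 and 497, then 284, 235 and 158, then 233, 164 and 113, which is a change of -1.52 on the log2 scale (limma adjusted p = 0.0687 without and 0.0313 with the block). Probe set 231037_at had 185, 198 and 200, then 105, 61.5 and 107, then 91.4, 59.0 and 67.2, which is a change of -1.27 on the log2 scale (limma adjusted p = 0.0674 without and 0.0436 with the block). For all 3, the treated arrays of both cell groups lay on one side of the untreated arrays.

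Between the treated groups, no member was called. This was so for all 29328 probe sets tested with limma (0% called), and it was also 0 members with the replicate block. The smallest adjusted p of a member was 0.673. At an unadjusted p under 0.05 there were 103 members (3.06%, background 2.43%). A mean change of 2-fold or more was seen for 8 members that were higher in treated HSF-6(S9) (0.237%, background 0.198%) and 40 that were lower (1.19%, background 0.750%). The groups did not overlap for 80 members that were higher (2.37%, background 2.41%) and 145 that were lower (4.30%, background 4.05%). The differences were -0.24 ± 0.38 for 237911_at, -0.27 ± 0.22 for 231460_at and 0.06 for 1556110_at on the log2 scale. A miss of the threshold with 3 arrays a group does not show that the treated groups were alike.

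Tested members sat at low signal, where arrays vary more. When all tested probe sets were split into 4 equal bins of mean signal, 1609 members (47.8%) fell into the dimmest and 365 (10.8%) into the brightest, against 22.2% and 26.4% of the single-gene sets. The median SD within groups fell from 0.495 in the dimmest to 0.261 in the brightest bin of members on the log2 scale, and from 0.484 to 0.235 for single-gene probe sets. Over all bins it was 0.397 and 0.322.

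The members were therefore also set beside single-gene sets of like signal. In HSF-6(8), 7.09%, 7.03%, 6.11% and 5.21% of the members had an unadjusted p under 0.05 from the dimmest to the brightest bin, and 10.3%, 10.1%, 7.07% and 3.64% of the single-gene sets. Members were below single-gene sets in the dimmer bins and above them in the brightest. In treated HSF-6(S9) against untreated HSF-6(8) the member shares were 10.1%, 10.9%, 11.8% and 7.40%, and the single-gene shares 14.3%, 13.4%, 10.8% and 7.72%. These shares are descriptions, since probe sets of the same arrays are not independent.

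**Figure D5:**
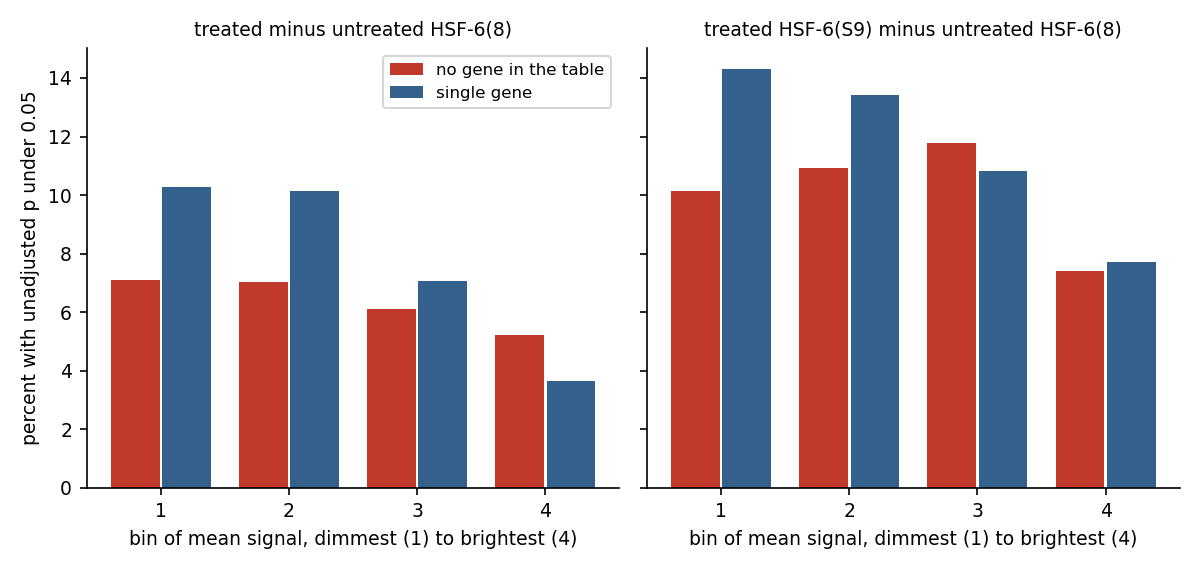
Percent of tested probe sets with an unadjusted p under 0.05 (y axis) by bin of mean signal (x axis, dimmest to brightest), for members and single-gene probe sets, in treated against untreated HSF-6(8) and in treated HSF-6(S9) against untreated HSF-6(8). In the dimmest bin of the first comparison members stand at 7.09% and single-gene probe sets at 10.3%.

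Members lay far from the other arrays of their group most often on 4 arrays. Of the tested members, 15.8%, 14.5% and 16.2% on the third arrays, with untreated HSF-6(8) given first and HSF-6(S9) last, were more than 2-fold from the mean of the other arrays of their group. The share was 15.5% on the second treated HSF-6(S9) array and 5.46% to 8.88% on the other 5 arrays. Single-gene probe sets had shares of 9.94% to 11.5% on the same 4 arrays and 3.24% to 5.84% on the rest. Their part in the calls was not tested beyond the counts given above.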

How the data were processed

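Per the labels' protocols, total RNA was isolated with an RNeasy kit, amplified with MessageAmp Premier and labelled with biotin, for 9 arrays. The deposited table gives linear intensity for each probe set, made by the authors with Affymetrix Expression Console and MAS5 (versions not given in the sources used here), per the submitters' processing notes. MAS5 scales each array, and the mean without the top and bottom 2% lay between 500.061 and 500.076. Precision is limited by the number of arrays.

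From the deposited intensity, log2(signal + 16) was fitted with limma 3.58.1 in R 4.3.3 (lmFit, contrasts.fit, eBayes, 6 residual and 3.20 prior degrees of freedom), with all 9 arrays in 1 fit and a mean per group. Adjusted p-values are from limma, two-sided, over the 29328 probe sets kept. Exact permutation tests compared shares per array. The calling procedure was also run on simulated data with independent noise on each array. That lacks the shared deviations of the third arrays, so it cannot show how the calls depend on them. Members and lists were chosen with earlier results of these data known.

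Named members were those called without overlap between groups, up to 8 rises and 8 falls in HSF-6(8) and 5 of each elsewhere. Of the 8 members this rule gave, the 5 numbered 220000 or more are named; the other 3 are not reported individually here, a limit chosen after the data were seen. Of 11 more called with the replicate block, 6 are named. Arrays were paired by the prime marks of their titles, which the labels do not explain. Same-marked arrays correlated after removal of group means with r from 0.12 to 0.59, and arrays of different marks with r from -0.48 to 0.38, so the block separates mainly the third arrays. Alternatives varied the added constant, filter, normalization, variance model, block, arrays and groups fitted, detection level and probe set endings.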

Additional observations from a re-analysis of the deposited data

How the results depend on the processing

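No named member changed direction against untreated HSF-6(8) under the alternatives run. The median log2 fold change of the members did: in HSF-6(8) it was -0.02 with the filter at the 75th percentile, between the treated groups it went from -0.06 to 0.02 without the second treated HSF-6(S9) array and to 0.0024 with that filter, and against untreated HSF-6(8) the (S9) value became positive without that array or the third untreated one. With quantile normalization the members' median in HSF-6(8) kept its sign and was 0.00076. Members called in HSF-6(8) numbered 6. They became 3 with 64 added (0.0890%, all probe sets 0.266%), with no filter (0.0256%, all 0.0970%) and with eBayes with trend (0.0890%, all 0.314%). They also became 3 with only the first and second arrays (0.0890%, all 0.157%). With only the compared groups fitted they were 3 of 3369, against 54 of all 29328. With the filter at the 75th percentile they became 3, 2 higher and 1 lower, with 2 of the original 6 among them. The member share there was above that of all (0.367%, all 0.328%). With the replicate block they numbered 10 (0.297%, all probe sets 0.505%), and with a batch block for the third arrays 17 (0.505%, all 0.730%), of which 14 were higher and 3 lower. Without each array in turn the count ranged from 2 to 8 (all 0.143% to 0.378%), with 2 to 6 of the original 6 among them. In treated HSF-6(S9) against untreated HSF-6(8) the count was 8. It became 5 with 64 added (0.148%, all 0.416%) and with trend (0.148%, all 0.409%). It was also 5 of the 2496 tested members numbered 220000 or more (an alternative chosen after seeing the data). The fit was the same there, with 0.389% of all called. With the filter at the 75th percentile it was 5, with 3 of the 8 among them, and the member share was above that of all (0.612%, all 0.519%). The count was 3 with no filter (0.0256%, all 0.108%) and 2 with only the first and second arrays (0.0594%, all 0.160%). With only the compared groups fitted it was 4 of 3369, against 62 of all 29328. It was 19 with the replicate block (0.564%, all 0.794%) and 25 with the third arrays as a block (0.742%, all 1.01%). Without each array in turn it was 2 to 10 (all 0.123% to 0.498%). Quantile normalization gave 8 (0.237%, all 0.378%), split into 5 higher and 3 lower. Between the treated groups the count was 0 under every alternative run. The detected members depended on the level chosen. At 50 they numbered 2788, 2953 and 2677 in untreated HSF-6(8) and the treated (8) and (S9) groups, and at 200 they numbered 1063, 1100 and 1052. Over numbers of 220000 or more there were 1067, 1140 and 1018, and without _s_at and _x_at sets 1137, 1210 and 1089. Leaving out each array gave 1831 to 1863, 1917 to 1983 and 1734 to 1899. The fewer arrays, probe sets or members of some alternatives are part of their construction; otherwise the cause was not tested. Low signal limits the members: 8352 of 11721 were not tested.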
